A study of Mus musculus with 3 samples.

Results

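The genes described here build cholesterol and fatty acids, move sterols into, within and out of the cell, or set the rate of those processes. A list of 36 symbols defined them, and 34 had a row among the 25410 symbols of the files; Hmgcs1 had none, and Msmo1 appears under its older symbol Sc4mol. They fall into 18 genes of sterol synthesis, 6 of uptake and export, 5 regulators and 5 of fatty acid synthesis. RNA was sequenced in 3 replicate libraries of IDG-SW3, an immortalized mouse bone line. It is expanded at a lower temperature with interferon-gamma and matures from an osteoblast to an osteocyte state once both are withdrawn. All 3 libraries came from day 35 of differentiation and from cells given 100 nM parathyroid hormone (PTH) for 24 h, so every sample carries the treatment and no effect of PTH was measured. All samples are of this 1 line, grown in a dish and not taken from bone. Vehicle-treated libraries were not analysed here.

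Cholesterol is made from acetyl-CoA through mevalonate, isoprenoid diphosphates, squalene and lanosterol. The SREBP transcription factors drive most enzymes of the pathway. When the membrane of the endoplasmic reticulum is poor in sterol, the escort protein SCAP carries SREBP to the Golgi for cleavage, and when it is rich the INSIG proteins hold the complex back. Excess sterol leaves the cell through ABC transporters that the oxysterol-sensing LXR receptors induce. In bone, the farnesyl diphosphate synthase of this pathway is the enzyme that nitrogen-containing bisphosphonates inhibit.

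The libraries held 35195518, 37299517 and 45240005 counts in replicates 1, 2 and 3. Levels are given as RPKM, the counts per kilobase of transcript and per 1000000 counts, as mean ± SD with n = 3 throughout. Of 8 osteoblast and osteocyte markers, 6 were above 1 RPKM, against 43.1% of all genes tested. These ran from 9.05 ± 0.94 RPKM for Phex to 6409 ± 408 RPKM for Sparc. The same 43.1%, and 9.86% for genes below 1 RPKM, stand behind the counts of the other markers. The osteocyte marker Dmp1 had 77, 115 and 6 counts (0.792, 1.12 and 0.0480 RPKM), far lowest in replicate 3, and the late osteocyte marker Sost had 2, 0 and 0 counts; neither was called. Ibsp, a matrix gene of mineralizing cells, stood at 2430, 2117 and 1608 RPKM, also lowest in replicate 3. Col1a2, Alpl and Phex were lowest there too. Pdpn went the other way (155, 129 and 184 RPKM), and Sparc was lowest in replicate 2. Of 6 adipocyte markers, Fabp4 (7.04, 8.89 and 13.2 RPKM) and Adipoq (2.07, 0.643 and 2.94 RPKM) were above 1 RPKM, Lep was below, and Plin1, with 2 rows, was listed at 0. Cidec (0.434, 0.173 and 0 RPKM) and Cfd (1.43, 0.927 and 0.838 RPKM) were unresolved and lowest in replicate 3. The summed level of the 6 adipocyte markers was 11.3, 11.1 and 17.3 RPKM in replicates 1, 2 and 3. Of 5 macrophage markers, Lyz2 (12.9 ± 1.10 RPKM) was above and Csf1r and Ptprc were below, with a summed level of 14.2, 14.9 and 12.6 RPKM. The part of either cell type in the levels given here was not tested, and in bulk RNA fewer cells of a type and less RNA per cell cannot be told apart.

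Most of the lipid genes were well above the level of a typical gene. Each gene was tested against a fixed 1 RPKM with edgeR's quasi-likelihood test, adjusted over 20999 genes, and is called above, below or unresolved at an adjusted p of 0.05. Above were 29 of 34 lipid genes, against 43.1% of all genes tested, and below were 2, against 9.86%. The other 3 were unresolved. Their median level was 21.3 RPKM, against 0.739 RPKM over all genes tested. Over symbols with 1 row the medians were 22.2 RPKM for 29 lipid genes and 0.911 RPKM for all genes. Levels above 10 RPKM were reached by 21 lipid genes, against 22.4% of all genes. Symbols with several rows often stood near 0 in these files, so the low values of Mvd and Scap, each with 2 rows, are not read as absence.

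**Figure D1:**
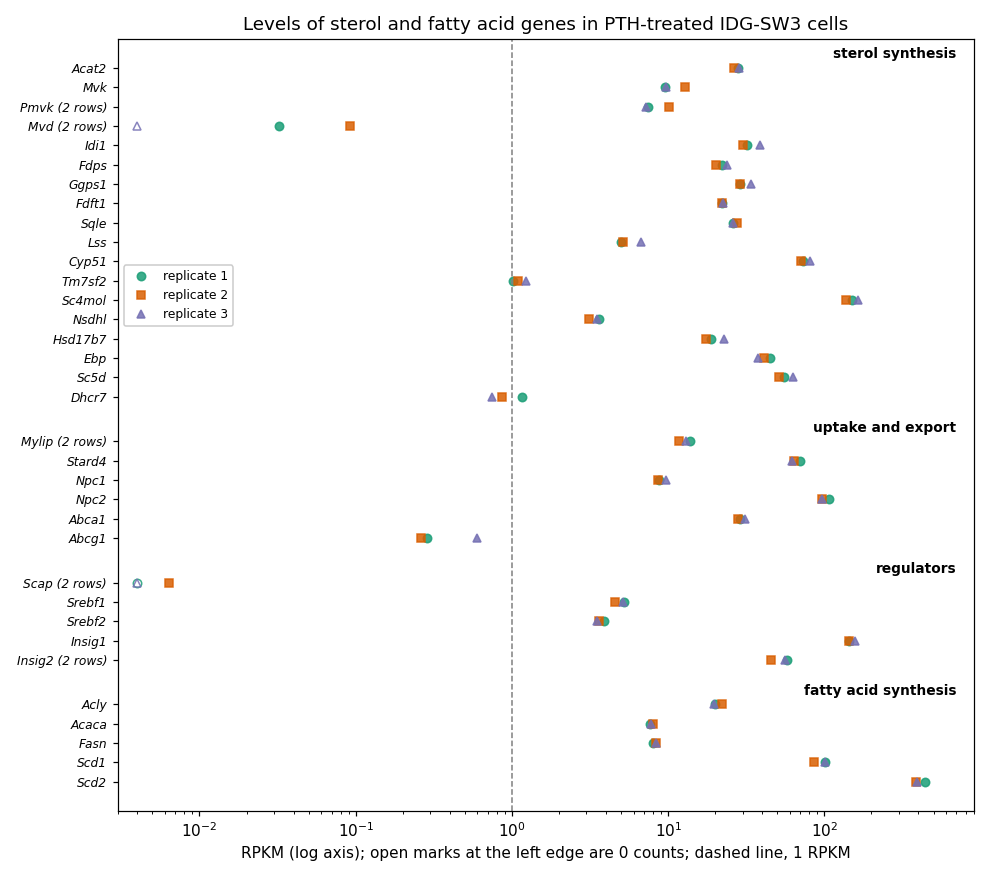
RPKM of each lipid gene in each of the 3 libraries, on a log axis, by group and in pathway order; open marks at the left edge are libraries with 0 counts and the dashed line is 1 RPKM. The 3 marks of most genes nearly coincide, and Scd2 lies farthest right at 408 RPKM on average. All marks of Mvd, Abcg1 and Scap lie left of the line, and those of Dhcr7 lie on both sides of it.

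In the early, mevalonate part of sterol synthesis, Acat2, Mvk and Pmvk were expressed at moderate levels. Acat2, the cytosolic thiolase that joins acetyl-CoA units, stood at 27.9, 26.5 and 28.3 RPKM in replicates 1, 2 and 3. Mvk (mevalonate kinase) stood at 9.51, 12.9 and 9.73 RPKM, highest in replicate 2. Pmvk, the kinase of the next step, stood at 7.38, 10.1 and 7.21 RPKM with the same library highest, and its 2 rows held 8, 36 and 0 and 269, 364 and 348 counts. The decarboxylase gene Mvd had 2, 6 and 0 counts, all in 1 of its 2 rows, for a level of 0.0413 ± 0.0465 RPKM (log2 level against 1 RPKM −4.60, edgeR adjusted p = 0.131). The 0 of replicate 3 allows up to 3 counts, or 0.0378 RPKM. Acat2 shares 97.7% identity over 1477 bases with its neighbour Acat3 and 98.7% over 445 bases with Tcp1. Part of the Acat2 counts may therefore belong to those genes.

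Genes of isoprenoid formation lay close together when the median transcript set the lengths. Idi1, the isomerase that makes dimethylallyl diphosphate, stood at 31.8, 30.2 and 38.8 RPKM. Fdps, the farnesyl diphosphate synthase, stood at 22.0, 20.3 and 23.7 RPKM. Ggps1, which extends farnesyl diphosphate to the geranylgeranyl form used for protein prenylation, stood at 29.0, 28.7 and 33.8 RPKM. Replicate 3 was highest for each of the 3 genes, and the ranges of Idi1 and Ggps1 overlapped. Fdft1 (squalene synthase), which commits farnesyl diphosphate to sterols, had the smallest SD of log2 level among the 30 lipid genes of at least 1 RPKM, at 22.1, 22.2 and 22.4 RPKM. Its exons overlap those of Ctsb on the opposite strand by 774 bases, and those of Fdps overlap Gm43738 on the same strand by 1124 bases, so part of these counts is uncertain. Exons of Idi1, Lss, Cyp51 and Npc1 also overlap genes on the opposite strand, by 90 to 381 bases. Idi1, Fdps, Ggps1 and Fdft1 each have processed pseudogenes of at least 95% identity over 300 bases or more, and how the authors counted reads with several matches is not given in the sources used here.

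From squalene onwards the enzymes spread over more than 2 orders of magnitude. Sqle (squalene epoxidase) stood at 25.9, 27.6 and 25.9 RPKM and Lss (lanosterol synthase) at 4.97, 5.15 and 6.74 RPKM, with no overlap between the genes. Cyp51, the lanosterol demethylase, stood at 73.3, 71.0 and 80.8 RPKM. Sc4mol, the sterol methyl oxidase that acts next but one, was the highest enzyme of the pathway at 151, 137 and 164 RPKM, rank 510 of 23033 symbols with a length. Nsdhl, the dehydrogenase that works with it, stood at 3.62, 3.10 and 3.53 RPKM (log2 level 1.77, edgeR adjusted p = 1.37e-14). For Nsdhl the adjusted p was 0.0274 with DESeq2 and 1.09e-06 with limma. The reductase gene of the same demethylation complex, Hsd17b7, stood at 18.7, 17.5 and 22.7 RPKM. Levels of the 3 partners thus differed by a wide margin in every library.

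The last steps again held both high and low genes. Ebp, the sterol isomerase, stood at 45.1, 40.8 and 37.6 RPKM and Sc5d, the desaturase, at 55.0, 50.9 and 63.3 RPKM. Dhcr7, the reductase that turns the vitamin D precursor into cholesterol, stood at only 1.17, 0.859 and 0.750 RPKM, or 109, 85 and 90 counts, and was unresolved (log2 level −0.11, edgeR adjusted p = 0.723). Tm7sf2, a sterol reductase, had 48, 55 and 75 counts for 1.01, 1.09 and 1.23 RPKM and was unresolved too (log2 level 0.15, edgeR adjusted p = 0.714). With the shortest transcript Tm7sf2 was called above 1 RPKM (log2 level 1.06, edgeR adjusted p = 0.00951). Lbr, the lamin B receptor, carries the same reductase activity and stood at 13.5, 12.1 and 13.5 RPKM; it was looked up after the low value of Tm7sf2 was seen. In all, the test put 15 of 18 sterol synthesis genes above 1 RPKM, against 43.1% of all genes tested, and none below, against 9.86%. The median of the 18 was 22.1 RPKM, against 0.739 RPKM over all genes tested. Without replicate 1, 2 or 3 the same test called 29, 29 and 29 lipid genes above, and DESeq2 and limma also called 29 each. Over all genes the counts above were 8914, 8885 and 9004 without replicate 1, 2 or 3. They were 7468 with DESeq2 and 9001 with limma.

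Uptake and export genes were led by proteins that move cholesterol inside the cell. Npc2, the lysosomal carrier that takes cholesterol from endocytosed lipoproteins, stood at 106, 96.5 and 96.9 RPKM. Its membrane partner Npc1 stood at 8.78, 8.58 and 9.63 RPKM, well below Npc2 and without overlap. Stard4, a cytosolic sterol carrier, stood at 69.7, 64.2 and 61.8 RPKM. Mylip, the ubiquitin ligase that degrades lipoprotein receptors and is itself an LXR target, stood at 13.9, 11.7 and 13.1 RPKM, all in 1 of its 2 rows. The level of Stard4 depends on transcript length: its log2 level against 1 RPKM was 6.03 with the median transcript and 3.59 with the longest.

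The pair of sterol exporters differed widely. Abca1, which loads cholesterol onto lipid-poor apolipoproteins, stood at 28.6, 27.9 and 31.0 RPKM. Abcg1, which loads it onto mature particles, had 36, 35 and 98 counts for 0.284, 0.261 and 0.601 RPKM, highest in replicate 3 (log2 level −1.39, edgeR adjusted p = 0.0255). Without replicate 1 the edgeR adjusted p of Abcg1 was 0.0960 and without replicate 2 it was 0.133, so the call was lost, whereas without replicate 3 it was 0.0270. DESeq2 gave an adjusted p of 0.571, and with the shortest transcript the log2 level was 0.0074. Replicate 3 also had the highest levels of Fabp4, Adipoq and Pdpn and the lowest of Cidec, Cfd, Dmp1 and Ibsp, given with the markers. The part of these differences in the Abcg1 value was not tested. Of the 6 genes of uptake and export, 5 were above and 1 below, against 43.1% and 9.86% of all genes tested.

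Among regulators, the INSIG genes were far higher than the SREBP genes they restrain. Insig1 stood at 143, 143 and 156 RPKM and Insig2 at 57.7, 45.4 and 55.9 RPKM, all counts of Insig2 lying in 1 of its 2 rows. Srebf1, whose protein favours fatty acid genes, stood at 5.18, 4.55 and 5.13 RPKM. Srebf2, whose protein favours sterol genes, stood at 3.90, 3.62 and 3.51 RPKM, below Srebf1 in each library and without overlap. Scap had 0, 1 and 0 counts over 2 rows (edgeR adjusted p = 0.0373 for below 1 RPKM). Its zeros allow up to 0.0202 and 0.0157 RPKM in replicates 1 and 3, the call rests on 1 count, and it was lost without replicate 1 (0.232) or replicate 3 (0.163). Without replicate 2 no count is left. Exons of Scap overlap those of 5830462I19Rik on the opposite strand by 785 bases and those of Srebf1 overlap Rai1 by 109 bases, and how strand was counted is not given in the sources used here.

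Fatty acid synthesis was dominated by the desaturases. Scd2, one of the mouse stearoyl-CoA desaturases that make monounsaturated fatty acids, had the highest level of all lipid genes at 443, 387 and 394 RPKM, from 85121, 78810 and 97245 counts. It ranked 178 of 23033 symbols and made up 28.7%, 27.2% and 25.7% of the summed RPKM of the 34 genes. Scd1 stood at 101, 86.0 and 101 RPKM. The supply and chain-building enzymes were lower: Acly, which makes cytosolic acetyl-CoA from citrate, stood at 19.9, 22.1 and 19.7 RPKM. Acaca (acetyl-CoA carboxylase) stood at 7.62, 7.96 and 7.79 RPKM and Fasn (fatty acid synthase) at 8.02, 8.31 and 8.42 RPKM. All 5 genes were above 1 RPKM, against 43.1% of all genes tested, with edgeR adjusted p between 2.85e-70 and 4.78e-35. Scd1 and Scd2 share 95.5% identity over a stretch of 623 bases, and Acaca has a processed pseudogene, so a part of these counts is uncertain.

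Ratios within a library set functionally linked genes against each other. Of 13 pairs, 12 could be compared and each had 1 direction in all 3 libraries; the exact sign-flip permutation test over 3 libraries cannot give a p below 0.25, and gave 0.25 for each pair. Scd2 exceeded Scd1 4.26-fold (log2 ratio 2.09 ± 0.11). Abca1 exceeded Abcg1 63.6-fold (5.99 ± 0.45), with 5.47 in replicate 3 and 6.23 and 6.28 in replicates 1 and 2; with the shortest transcripts it was 4.82. Abcg1 lies near the pseudocount of 0.1 RPKM, so a pseudocount of 1 RPKM gave 4.46 and none gave 6.36. Npc2 exceeded Npc1 11.0-fold (3.46 ± 0.13), and Sqle exceeded Lss 4.68-fold (2.23 ± 0.26). Dhcr7 was 55.7-fold lower than Sc5d (−5.80 ± 0.39), the steps on either side of the vitamin D precursor, and a pseudocount of 1 RPKM gave −4.90. Insig1 exceeded Insig2 2.79-fold (1.48 ± 0.17), and the log2 ratio was 0.59 with the shortest and 2.59 with the longest transcripts. No fold is given for Scap against Insig1, since Scap had 1 count.

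Other pairs lay closer together when the median transcript set the lengths. Fasn and Acaca differed by a log2 ratio of 0.081 ± 0.026, and −0.0089 when the longest transcripts set the lengths; a correction for GC content gave 0.95. Srebf2 was 1.34-fold lower than Srebf1 (−0.42 ± 0.11). Acly was 1.34-fold lower than Acat2 (−0.42 ± 0.14), but higher with the shortest transcripts (0.77). Fdft1 and Fdps lay below Ggps1 (−0.45 ± 0.12 and −0.47 ± 0.061), and much farther below it with the shortest transcripts (−2.13 and −2.26). Both lay above Ggps1 with the longest transcripts (0.16 and 0.24) and with the correction for GC content (0.042 and 0.23). The level of Ggps1 itself moved with the transcript chosen, with a log2 level of 4.93 for the median, 6.81 for the shortest and 4.14 for the longest.

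**Figure D2:**
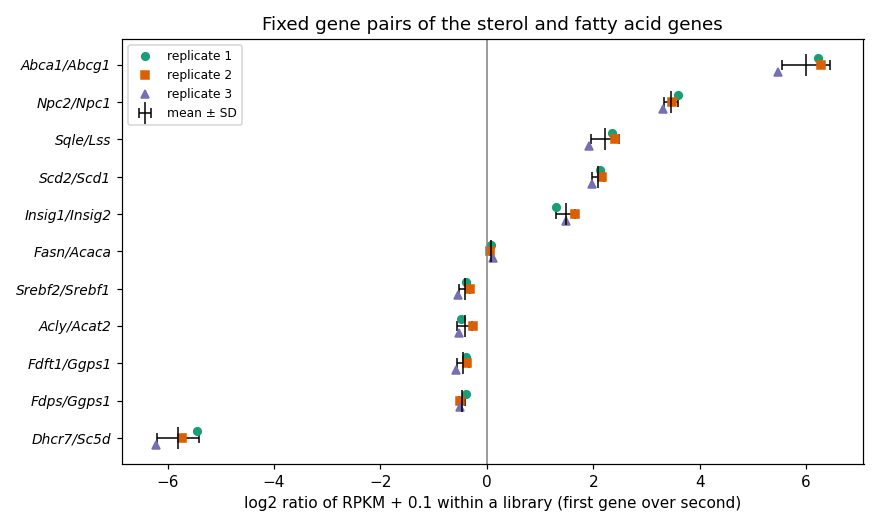
Log2 ratio of RPKM + 0.1 within each library for 11 fixed gene pairs (first gene over second), with the mean and SD over the 3 libraries as black bars. Ratios span from −5.80 for Dhcr7 over Sc5d to 5.99 for Abca1 over Abcg1, and replicate 3 lies apart from the others for the Abca1 pair.

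The lipid genes varied little between replicates. The 30 with a mean of at least 1 RPKM had a median SD of 0.11 on the log2(RPKM + 0.1) scale, against 0.17 over 9873 genes with such a mean. These sets were not matched for level, and the part of level in this difference was not tested. In 3 classes of rising GC content, described below, the lipid genes had median levels of 53.0, 27.0 and 8.21 RPKM. Over all genes of those classes the medians were 11.9, 10.1 and 6.29 RPKM. SDs of the lipid genes ran from 0.011 for Fdft1 to 0.26 for Pmvk. Of these 30 genes, 15 were highest in replicate 3, 10 in replicate 1 and 5 in replicate 2. Over all genes, 42.5% were highest in replicate 3, 29.8% in replicate 1 and 27.7% in replicate 2. Sterol synthesis genes had a median deviation of 0.11 in replicate 3, −0.031 in replicate 1 and −0.079 in replicate 2. Over all genes the medians were 0.031, 0.0044 and −0.027 in the same libraries. Mvk and Pmvk went the other way, with deviations of 0.28 and 0.30 in replicate 2. Replicate 3 was also the library lowest in Dmp1 (6 counts) and Ibsp (1608 RPKM), but highest in Pdpn (184 RPKM). The part of these marker differences in the deviations was not tested.

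**Figure D3:**
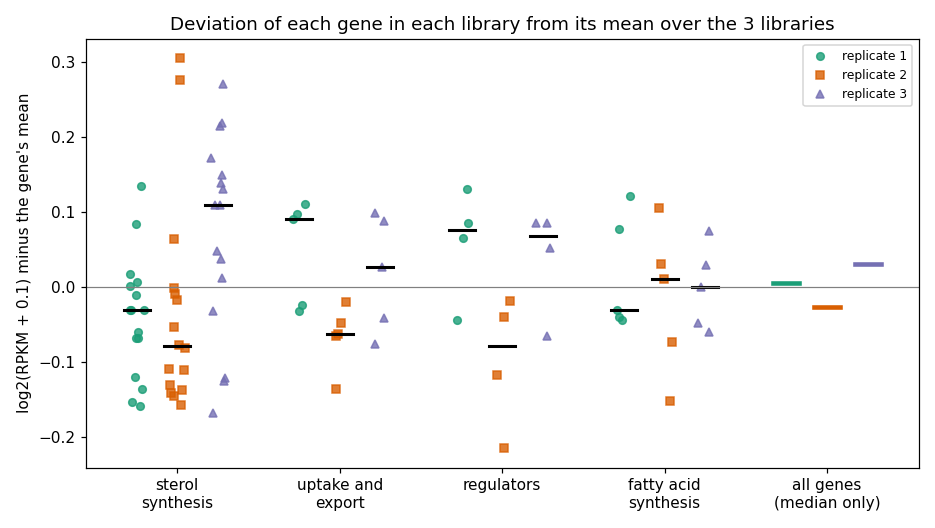
Log2(RPKM + 0.1) of each lipid gene in each library minus the gene's mean over the 3 libraries, for the 30 genes with a mean of at least 1 RPKM; black bars are group medians and coloured bars at the right are medians over all 9873 genes. Of 16 sterol synthesis genes, 12 lie above 0 in replicate 3 and 13 lie below 0 in replicate 2; Mvk, Pmvk and Sqle are above 0 in replicate 2.

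GC content of the transcripts moved with these small differences. Genes were split into 3 classes of like size by GC content. The 7 lipid genes of the class with up to 46.8% GC were all higher in replicate 3 than in replicate 2, by a median log2 ratio of 0.27, against 0.12 over the 3291 genes of that class. Of those 3291 genes, 2149 were higher in replicate 3. In the middle class 11 of 16 lipid genes were higher in replicate 3, against 1918 of 3292 genes. In the highest class 4 of 7 were, against 1653 of 3290 genes. In the middle class the medians were 0.058 for 16 lipid genes and 0.059 for all genes, and in the highest class, above 52.7% GC, 0.019 for 7 lipid genes and 0.0035 for all genes. Idi1, with 41.9% GC, stood at 38.8 RPKM in replicate 3 and 30.2 RPKM in replicate 2, whereas Pmvk, with 56.3% GC, stood at 7.21 RPKM in replicate 3 and 10.1 RPKM in replicate 2. Over the 30 lipid genes Spearman's rho between GC content and this log2 ratio was −0.57, and −0.14 over all genes; these points share the same libraries. GC content also went with level, with a rho of −0.54 over the 30 lipid genes and −0.14 over all genes. After a correction for GC content, chosen after the data were seen, the median deviation of sterol synthesis genes in replicate 3 was 0.085. With TMM library sizes and no GC correction that median was 0.086, against 0.11 with total counts. The part of GC content in the deviation was not tested.

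**Figure D4:**
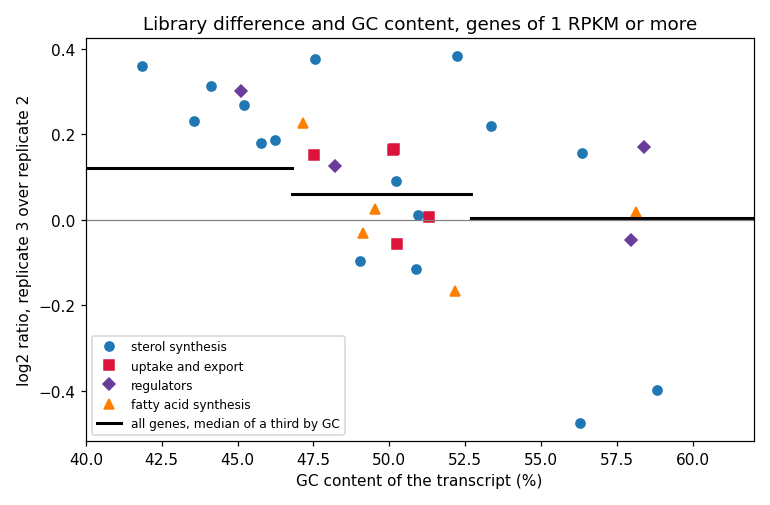
Log2 ratio of replicate 3 over replicate 2 against the GC content of the transcript (%), for the 30 lipid genes with a mean of at least 1 RPKM; black bars are medians over all genes in each of 3 classes by GC content. The lipid genes of low GC content lie above 0, and Mvk and Pmvk, at high GC content, lie lowest.

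Promoter sequences were read for the genes of the sterol pathway because their enzymes stood at very different levels. RefSeq windows of GRCm38.p6, from 250 bases before to 50 after each start, matched 26 of 34 lipid genes; Fdps, Fdft1, Sqle, Stard4, Npc1, Abcg1, Scd1 and Scd2 are named only. The stretches below cover the 190 bases before the start, written along the gene's strand, for 4 high genes (Sc4mol, Cyp51, Sc5d and Insig1), 2 low ones (Nsdhl and Tm7sf2) and Acat2. Capitals mark matches on either strand to CCAAT (the box bound by NF-Y, a partner of SREBP), GGGCGG (the GC box), CACGTG (an E-box) and CACCCCAC (the core of the sterol regulatory element).
Sc4mol: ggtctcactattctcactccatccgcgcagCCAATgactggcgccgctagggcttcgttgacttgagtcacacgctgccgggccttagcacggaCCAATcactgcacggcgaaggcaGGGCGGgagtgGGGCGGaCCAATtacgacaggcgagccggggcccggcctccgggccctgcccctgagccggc
Cyp51: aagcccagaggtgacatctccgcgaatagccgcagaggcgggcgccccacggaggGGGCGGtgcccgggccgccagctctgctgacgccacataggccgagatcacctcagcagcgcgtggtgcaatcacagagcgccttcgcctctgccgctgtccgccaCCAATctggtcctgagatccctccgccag
Sc5d: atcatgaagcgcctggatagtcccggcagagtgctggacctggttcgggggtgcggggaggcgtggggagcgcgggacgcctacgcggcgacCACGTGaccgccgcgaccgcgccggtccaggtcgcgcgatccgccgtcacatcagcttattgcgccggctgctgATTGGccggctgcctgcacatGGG
Insig1: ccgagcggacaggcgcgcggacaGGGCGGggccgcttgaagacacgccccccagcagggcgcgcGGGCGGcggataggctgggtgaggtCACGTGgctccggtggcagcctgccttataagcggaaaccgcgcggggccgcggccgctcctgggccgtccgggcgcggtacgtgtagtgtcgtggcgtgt
Nsdhl: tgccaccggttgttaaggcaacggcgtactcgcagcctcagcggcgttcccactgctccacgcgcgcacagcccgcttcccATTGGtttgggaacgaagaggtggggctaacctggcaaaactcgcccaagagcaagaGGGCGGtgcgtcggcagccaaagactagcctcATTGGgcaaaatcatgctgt
Tm7sf2: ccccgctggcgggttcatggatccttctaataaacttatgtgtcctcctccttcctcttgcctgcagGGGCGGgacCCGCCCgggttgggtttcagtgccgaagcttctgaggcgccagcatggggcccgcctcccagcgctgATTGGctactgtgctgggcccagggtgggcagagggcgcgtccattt
Acat2: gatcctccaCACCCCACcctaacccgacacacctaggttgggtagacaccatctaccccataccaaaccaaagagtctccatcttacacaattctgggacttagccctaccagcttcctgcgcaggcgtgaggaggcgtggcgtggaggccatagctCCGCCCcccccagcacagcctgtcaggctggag

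The Sc4mol stretch lies at chr8:64733579-64733768, minus strand. The Cyp51 stretch lies at chr5:4104698-4104887, minus strand. The Sc5d stretch lies at chr9:42264301-42264490, minus strand. The Insig1 stretch lies at chr5:28071222-28071411, plus strand. The Nsdhl stretch lies at chrX:72918331-72918520, plus strand. The Tm7sf2 stretch lies at chr19:6067851-6068040, minus strand. The Acat2 stretch lies at chr17:12960726-12960915, minus strand. Sc4mol holds 3 CCAAT boxes and 2 GC boxes in this stretch, whereas Cyp51 holds 1 of each. The capitals at the 3′ end of the Sc5d stretch begin a GC box that runs past the start. Nsdhl and Tm7sf2, at 3.42 and 1.11 RPKM on average, hold CCAAT and GC boxes as Sc4mol and Cyp51 do. The CCAAT box of Insig1 lies farther upstream, at −216 to −212, outside the stretch shown.

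The CCAAT box was present in 22 of 26 lipid gene promoters, or 84.6%. It was present in 41.1% of the 27025 genes of the table and in 42.5% of 6153 table genes that were above 1 RPKM here. The GC box was also present in 22 of 26 (84.6%), against 38.2% of all genes and 69.9% of those above 1 RPKM. A gene with several starts counts when any of its windows holds the motif. The E-box was found in 6 (Hsd17b7, Sc5d, Dhcr7, Abca1, Scap and Insig1), or 23.1%, against 8.09% and 11.9%. The core CACCCCAC was found in 1 of 26 (Acat2, at −181 to −174), a share of 3.85%, against 3.30% and 3.69%, and the longer pattern TCACNCCAC, which can overlap it, in 0 of 26, against 1.44% and 1.25%. Absence of these letters says nothing about binding of the factor, since sterol elements vary in sequence. Acaca held none of the motifs, and Acat2, Abca1 and Scap were the others without a CCAAT box.

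**Figure D5:**
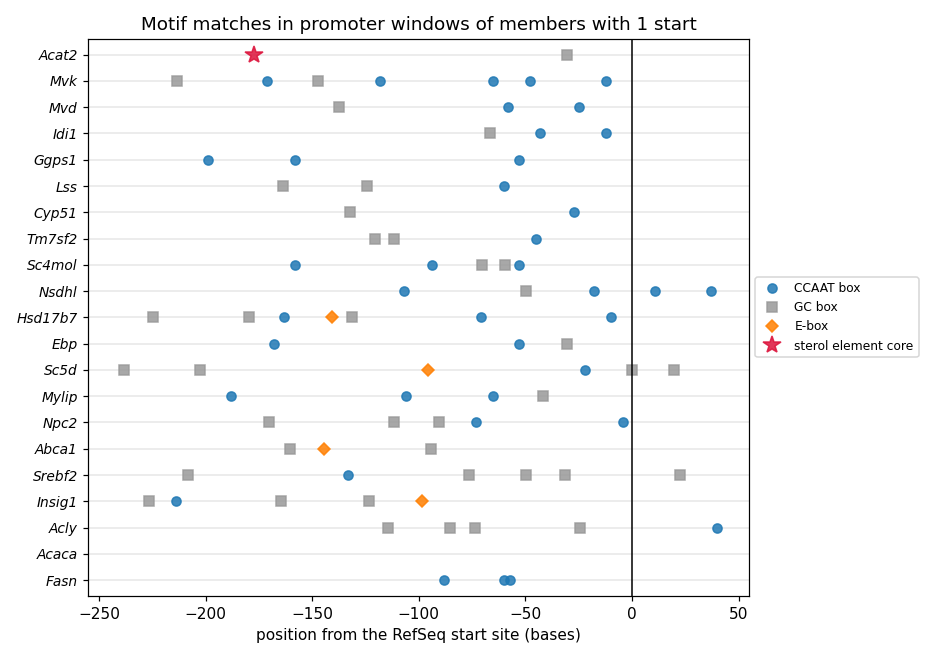
Positions of motif matches on either strand, in bases from the RefSeq start site, for lipid genes with 1 start in the table. CCAAT boxes (blue) recur upstream of the start in most genes, and the sterol element core (star) is seen in Acat2 alone.

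Further genes of the pathway were taken from lists of 51 genes. Their median was 3.57 RPKM, against 0.739 RPKM over all genes tested. The test called 32 of them above 1 RPKM, against 43.1% of all genes, and 6 below, against 9.86%, and left 8 unresolved. The same shares of all genes stand behind the counts of each list. The other 5 (Rabggtb, Elovl1, Elovl4, Tecr and Acsl3) were listed at 0, and each has several rows. Among isoprenoid branches 7 of 10 were above and 0 below, led by Fnta (50.1 ± 1.54 RPKM), a farnesyltransferase subunit, Nus1 (30.6 ± 1.87) and Pggt1b (23.3 ± 1.17). Among genes that process or degrade SREBP and INSIG, 4 of 7 were above, among them Rnf139 (25.2 ± 2.32 RPKM) and Erlin2 (18.2 ± 0.211 RPKM). The members below, Mbtps1 (0.104 ± 0.0875, the protease that first cleaves SREBP) and Syvn1 (0.344 ± 0.0704), have 2 rows each.

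Sterol storage and transport held 6 of 10 genes above and 3 below. Lrp1, a large endocytic receptor, stood at 478, 584 and 503 RPKM, above Scd2 in each library. Soat1, which esterifies cholesterol for storage, stood at 48.4 ± 3.50 RPKM and Osbp at 30.8 ± 0.211. Lipa (0.271 ± 0.0692, 2 rows), Osbpl9 (0.274 ± 0.0617, 3 rows) and Abca2 (0.279 ± 0.0862, 1 row) were below. Of 5 LXR and oxysterol genes 2 were above, the hydroxylase genes Cyp7b1 (3.57 ± 0.575) and Ch25h (3.55 ± 1.49), and 0 below. The LXR gene Nr1h2 stood at 1.46 ± 0.489 RPKM and was unresolved (edgeR adjusted p = 0.0803). Fatty acid elongation, desaturation and activation held 13 of 19 above, led by Hsd17b12 (66.5 ± 2.53), Elovl6 (65.9 ± 7.72) and Elovl5 (58.4 ± 8.09). Acacb, the carboxylase isoform tied to mitochondria, was the 1 member below at 0.166 ± 0.0960 RPKM.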

How the data were processed

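RNA depleted of ribosomal RNA was made into directional libraries, per the labels' protocols. TopHat and build mm9 are named, per the submitters' processing notes; the sources used here name no counting tool, annotation or strand setting. The deposited files list a whole number for each of 30795 rows; the authors' file names call them RPKM, but they were read as raw counts, since they are whole and sum to a different total in each library. Every RPKM rests on that reading.

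Rows were summed per symbol. RPKM used the total count and the median length of basic GENCODE M21 transcripts (GRCm38), found for 23033 symbols. The 20999 with counts were tested across all genes, two-sided, against 1 RPKM with edgeR 4.0.16 (R 4.3.3), the expected count at 1 RPKM as offset, a Poisson bound on p and Benjamini-Hochberg adjustment. Alternatives used limma 3.58.1 and DESeq2 1.42.0. The pseudocount was 0.1 RPKM. Like sequences were found with BLAST 2.17.0. Members, lists and pairs were chosen with earlier results of these data known. All listed genes are named, with up to 3 of each further list and those below 1 RPKM; 1 gene of the further lists is not reported here. Replicates are biological per the design text, and p-values take no account of variation beyond these 3 libraries. The edgeR dispersion came from a trend over all genes, so its small p-values do not measure each gene's own spread alone. Floors of 3 counts cover counting error only.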

Additional observations from a re-analysis of the deposited data

How the results depend on the processing

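The count of 29 lipid genes above 1 RPKM was 29 or 30 under every alternative that kept all members, 26 over the symbols with 1 row, and 21 without the 8 members that have a near-identical copy (added after the data were seen). The count below, 2 (Abcg1 and Scap), was 1 with DESeq2, with a filter of 10 counts, with the shortest transcript, over symbols with 1 row and with the mean over rows, and 3 with limma, which also called Mvd. It was between 0 and 1 with a replicate left out. Over all genes the count below, 2071, was between 371 and 1615 with a replicate left out, 268 with DESeq2 and 9852 with limma, while the count above stayed between 7468 and 9324. The cause of the spread in the count below was not tested. TMM and DESeq2 factors changed no member's call.

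Some directions turned with the transcript chosen, the GC correction or a replicate left out. The log2 level of Dhcr7 was 0.57 with the shortest transcript and 0.018 without replicate 3 (−0.32 without replicate 1), and that of Abcg1, −1.39 with the median transcript, was 0.0074 with the shortest. The ratio of Fdft1 to Ggps1 was 0.16 and that of Fdps to Ggps1 0.24 with the longest transcript, and 0.042 and 0.23 with the GC correction. That of Fasn to Acaca was −0.0089 with the longest transcript, and that of Acly to Acat2, −0.42 with the median transcript, was 0.77 with the shortest. Without a pseudocount, Scap against Insig1 has no value. The choice of transcript moved levels by over 1.5 times for Abcg1, Acly, Dhcr7, Ggps1, Hsd17b7, Insig2, Pmvk, Sc5d, Stard4 and Tm7sf2.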
